A study of Mus musculus with 120 samples.

Results

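The 10 genes described here make or sense serotonin, leukotrienes and prostaglandins, and they were picked out of 46078 gene identifiers. They were chosen by their role and by measured levels of these same cells. They are Tph1 for serotonin, Alox5, Alox5ap, Lta4h, Ltc4s and Cysltr1 for leukotrienes, and Hpgds, Ptgdr2, Ptgir and Ptger4 for prostaglandins. The choice was made around the levels of Tph1, which were higher after stimulation, and of Alox5, which were lower, so the differences between states given for both are descriptions and not tests. The levels come from 3' RNA sequencing of 120 single mouse ILC2 (group 2 innate lymphoid cells), which release the type 2 cytokines interleukin (IL) 13 and IL-5.

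All cells were of wildtype C57BL/6 mice. They came from the mesentery of 20 animals, which was pooled, and per the study's methods such mice were usually retired female breeders. Lineage-negative cells that carried c-Kit and Sca-1 were sorted and kept in culture with IL-2 for several months before use, so the cells are a cultured population of mixed animals. Apart from the cells taken before stimulation, each cell received IL-2 and IL-33 under live imaging of the secretion of 1 cytokine, called the index, and was then recovered. Each index, IL-13 or IL-5, has 60 cells in 6 states. The states are 5 cells before stimulation, 11 cells each at 30, 60 and 90 min after the onset of secretion, 11 activated and 11 silent cells. Activated and silent cells were both taken 8 h after the stimulus was added, with and without a detected secretion signal of the index cytokine. Silent refers to that cytokine alone. No animal or culture is named for a cell, so each of the 12 groups counts as 1 sample, no test between groups was possible, and no p-value is given. The sample titles carry 2 dates per index without saying what they mark, and the cells before stimulation bear only the first date.

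Levels are reads summed over the cells of a group, per 1000000 gene reads (CPM), with exact 95% Poisson intervals, and shares of cells above 0 carry exact 95% binomial (Clopper-Pearson) intervals. For 0 cells, the share that this count allows is given as 3 cells of the total. Both kinds of interval cover counting error only, of reads and of cells. The reads carry no molecular identifiers, so copies of 1 molecule can count more than once, and the Poisson intervals do not cover the counting of molecules. Gene reads per cell had a median of 254001 and ran from 65 to 785198, and summed reads per group from 964383 to 3732032. The 3 cells with fewer than 10000 reads stay in the sums and have no CPM of their own, except in the averages of single-cell CPM given as an alternative. A group with 0 reads of a gene was given a limit of 3 reads over the group, which came to between 0.804 and 3.11 CPM. A fold against such a group is written as at least its value against that limit.

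The ILC2 label was checked against 14 markers, and 14 of 14 had reads, Gata3 in 116, Il1rl1 (the IL-33 receptor) in 113 and Ly6a (Sca-1) in all 120 cells. Other markers of the list were in fewer cells, with Il17rb in 13, Areg in 14, Arg1 in 22, Il7r in 46 and Thy1 in 53. The summed list was at 11466 and 11357 CPM before stimulation and at 5762 to 12907 CPM afterwards, with its lowest levels in activated and silent cells. Mast cells are a classical source of serotonin and leukotrienes, and 3 of 12 mast cell markers had reads, namely Cpa3 and Mitf in 2 cells each and Fcer1a in 15. Mcpt4, Cma1, Tpsb2, Tpsab1, Ms4a2 and Hdc were at 0 in all 120 cells. The summed mast cell list ran from 37.1 to 301 CPM before stimulation and from 0 to 326 CPM afterwards. The basophil list had reads in 2 of 5 genes (Fcer1a and Cd200r3), at 37.1 to 779 CPM before and 0 to 328 CPM after, with Mcpt8 and Prss34 at 0. Cd200r3 had reads in 17 cells, among them all 5 IL-13-indexed cells before stimulation, at 478 CPM. Of 10 T cell markers 6 had reads, at 1740 to 1884 CPM before stimulation and 327 to 1499 CPM after, with Cd4, Cd8a, Cd8b1 and Cd5 at 0. Trbc2, of the same T cell list, had reads in 98 cells and stood at 262 to 1362 CPM in the groups. The largest part of the difference in that list lay in Cd3g, at 1128 and 1195 CPM before stimulation against 0 to 505 CPM in the other groups. The 5 B cell markers were at 0, and 2 of 8 myeloid markers (at most 38.3 CPM), 2 of 7 markers of NK cells, ILC1 and ILC3 (at most 344 CPM) and 1 of 8 stromal markers (Pecam1, at most 175 CPM) had reads. The part of these other lists in the values below was not tested.

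Serotonin is made from tryptophan in a first, rate-limiting step by tryptophan hydroxylase, of which Tph1 is the form used outside the brain and which needs tetrahydrobiopterin, followed by a decarboxylation by Ddc. Leukotrienes start with arachidonate, which 5-lipoxygenase (Alox5) with its helper protein Alox5ap turns into leukotriene A4. From there Lta4h makes leukotriene B4, and Ltc4s makes the cysteinyl leukotrienes that Cysltr1 senses. Prostaglandins branch off through cyclooxygenase, with Hpgds making prostaglandin D2, Ptgdr2 (CRTH2) sensing it, Ptgir sensing prostacyclin and Ptger4 sensing prostaglandin E2. ILC2 are known to respond to cysteinyl leukotrienes and prostaglandin D2, to be restrained by prostacyclin and prostaglandin E2, and to express Tph1 on activation.

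The windows around the gene starts are shown for Tph1 and Alox5, since these genes stand at the opposite ends of the patterns below. They are RefSeq promoter windows on build GRCm38.p6, 250 bases before to 50 after a start, printed 5' to 3' on the gene's own strand, which is the minus strand for both. Capitals mark the GC box letters GGGCGG on either strand. Tph1 has a window at chr7:46667328-46667627 with 2 such matches, from 138 to 133 and from 117 to 112 bases before the start, and a second at chr7:46672488-46672787 with none. Alox5 has a window at chr6:116461129-116461428 with 1 match, from 35 to 30 bases before the start.
Tph1, inner start: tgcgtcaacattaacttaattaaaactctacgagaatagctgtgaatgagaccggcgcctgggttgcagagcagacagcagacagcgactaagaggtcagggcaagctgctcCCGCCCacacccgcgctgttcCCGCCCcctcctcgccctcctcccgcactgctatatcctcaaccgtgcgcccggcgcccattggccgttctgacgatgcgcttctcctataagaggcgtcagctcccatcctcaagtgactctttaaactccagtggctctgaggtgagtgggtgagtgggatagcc
Tph1, outer start: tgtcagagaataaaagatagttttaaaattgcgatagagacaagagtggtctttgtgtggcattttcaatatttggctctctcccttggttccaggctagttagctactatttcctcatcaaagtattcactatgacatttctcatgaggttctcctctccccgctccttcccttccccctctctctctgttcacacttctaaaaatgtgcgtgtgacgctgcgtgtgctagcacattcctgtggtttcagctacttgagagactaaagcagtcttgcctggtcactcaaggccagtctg
Alox5: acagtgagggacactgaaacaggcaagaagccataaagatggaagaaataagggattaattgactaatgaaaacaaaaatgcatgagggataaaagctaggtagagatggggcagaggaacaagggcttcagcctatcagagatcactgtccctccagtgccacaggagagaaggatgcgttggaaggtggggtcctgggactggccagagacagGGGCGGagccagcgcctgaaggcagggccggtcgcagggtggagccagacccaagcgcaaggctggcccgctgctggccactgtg
The inner Tph1 window holds 58% G and C and 19 CG pairs, the outer one 45% and 5, and the Alox5 window 55.7% and 7, beside medians of 52.7% and 7 over 32851 promoter windows. The table has windows for 8 of the members, 9 in all, and both strands were searched for 6 motifs. A GC box is in 5 of the 9 windows and in 35.7% of all windows. The NF-kB motif, 10 letters long and able to overlap a GC box, is in 4 windows (Alox5, Lta4h, Ptger4 and Ptgir) and 50.8% of all, and the Alox5 window has 3 matches, 1 of them over its GC box. NFAT letters (TGGAAA) are in 2 windows (Ltc4s and Ptger4) and 21.4% of all. The AP-1 motif is in 0 of the 9 windows and in 7.81% of all. GATA letters (AGATAA) are likewise in 0 windows, beside 11.2% of all. The same holds for the TATA box (TATAAA), beside 13.6%. A match describes letters in the window and nothing about binding.

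Tph1 (ENSMUSG00000040046, chromosome 7, 46644641 to 46672537, minus strand, GRCm38) had 42263 reads in 62 cells. Before stimulation it had 0 reads in both indexes, in 0 of 10 cells, which allows a share of up to 30% of cells. The IL-13 index reached 1156 CPM (1115 to 1197) at 30 min, 0 CPM at 60 min, then 3369 CPM (3282 to 3459) by 90 min, 1048 CPM (1012 to 1084) when activated and 2058 CPM (2003 to 2113) when silent. In the IL-5 index it stood at 2390 CPM (2339 to 2441), 2598 CPM (2544 to 2652), 536 CPM (503 to 570), 611 CPM (587 to 637) and 1350 CPM (1310 to 1392) in the same states. Tph1 was thus found after stimulation in every group but 1, in silent as in activated cells. The exception, the IL-13 index at 60 min, had 0 reads in 11 cells on both title dates, which allows a share of up to 27.3% of cells and a summed level of 0.98 CPM.

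The group levels came from few cells. The IL-13 index cells ran from 0 over a median of 3.26 to a highest of 13126 CPM at 30 min, from 0 over 6.38 to 11118 CPM at 90 min, from 0 over 9.15 to 2959 CPM when activated and from 0 over 9.90 to 8812 CPM when silent. The IL-5 index cells ran from 0 over 4.09 to 15869 CPM at 30 min, from 0 over 15.3 to 15131 CPM at 60 min, from 0 over 5.32 to 2865 CPM at 90 min, from 0 over 0 to 4361 CPM when activated and from 0 over 1.68 to 8381 CPM when silent. In each of these 9 groups the lowest cell was at 0 CPM and the median at or under 15.3 CPM, so any 2 of them overlapped over their cells and the order of their summed levels is no order of cells.

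**Figure D1:**
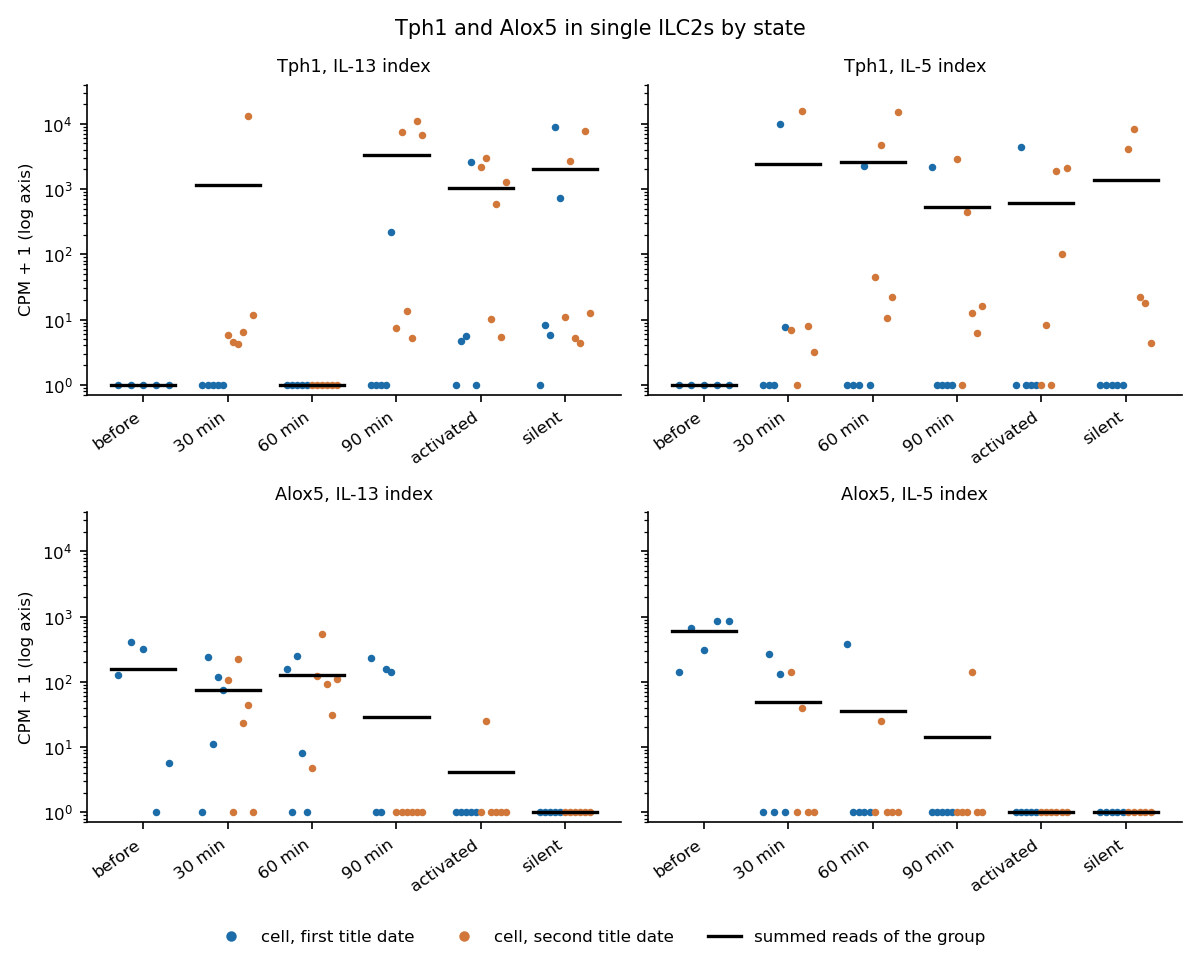
Tph1 and Alox5 in single cells by group, each point 1 cell with at least 10000 gene reads (CPM, log axis with 0 shown), blue for the first and orange for the second title date, and a black line for the level of the summed reads. Tph1 is at 0 in all 10 cells before stimulation and splits into a low and a high set afterwards, while Alox5 has reads in 9 of 10 cells before stimulation and in 0 of 22 silent cells.

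Cells with much Tph1 were counted at a limit of 200 CPM, set after the values were seen in a gap of the distribution that ran from 99.7 to 221 CPM. Of the 107 stimulated cells with a CPM of their own, 27 lay at or above it (25.2%, 17.3 to 34.6), with a lowest value of 221, a median of 2959 and a highest of 15869 CPM. They held 99.8% of the Tph1 reads of the cells with a CPM of their own. By state, the IL-13 index had 1 of 11 such cells at 30 min, 0 of 11 at 60 min, 4 of 11 at 90 min, 5 of 11 when activated and 4 of 11 when silent. The IL-5 index had 2 of 10, 3 of 10, 3 of 11, 3 of 11 and 2 of 10. The totals of 14 of 55 and 13 of 52 cells were close to each other, and the widest gap between states lay within the IL-13 index, with 0 cells at 60 min, which allows up to 27.3%, and an exact interval of 16.7 to 76.6% when activated. By title date there were 8 such cells among 50 on the first date and 19 among 57 on the second.

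The other cells with Tph1 had far fewer reads, and these were counted by library pool and title date. Cells shared a tagmentation reaction in sets of 5 or 6, and the cells of 1 state and 1 title date, taken here as 1 pool, make 22 pools. In the 16 pools that held a cell at 200 CPM or more, 33 of the 59 other cells had Tph1 reads, 105 reads in all and at most 99.7 CPM in a cell. Among the 31 cells of the 6 pools without such a cell, 0 had a Tph1 read. These 31 include the 10 cells before stimulation and the 11 IL-13-indexed cells at 60 min, so pool and state could only in part be told apart. The low reads differed by title date too. In pools with a high cell, 28 of the 32 other cells of the second date had reads against 5 of 27 of the first, and 4 of the 7 such pools of the first date had none. Of the 6 pools without a high cell 5 were of the first date, so pool and date could only in part be told apart. Shares of cells with a read (62 of 110 stimulated cells, 56.4%, 46.6 to 65.8) count the cells with low reads too. For the other members, the cells with reads at under 25 CPM numbered between 0 and 12 a gene. Such cells lay in a pool with a cell at 200 CPM or more of the same gene in 9 of 9 cases for Hpgds, 10 of 12 for Lta4h, 5 of 7 for Alox5, 6 of 10 for Ptgir, 5 of 9 for Ptger4 and 4 of 5 for Cysltr1, so their shares of cells with a read hold such cells as well. Cells at 200 CPM or more numbered 47, 32, 13, 12, 19 and 13 for these genes in this order, over 22 pools. The share of pools that held such a cell was not counted, so nothing on the source of the low reads was read from this.

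**Figure D2:**
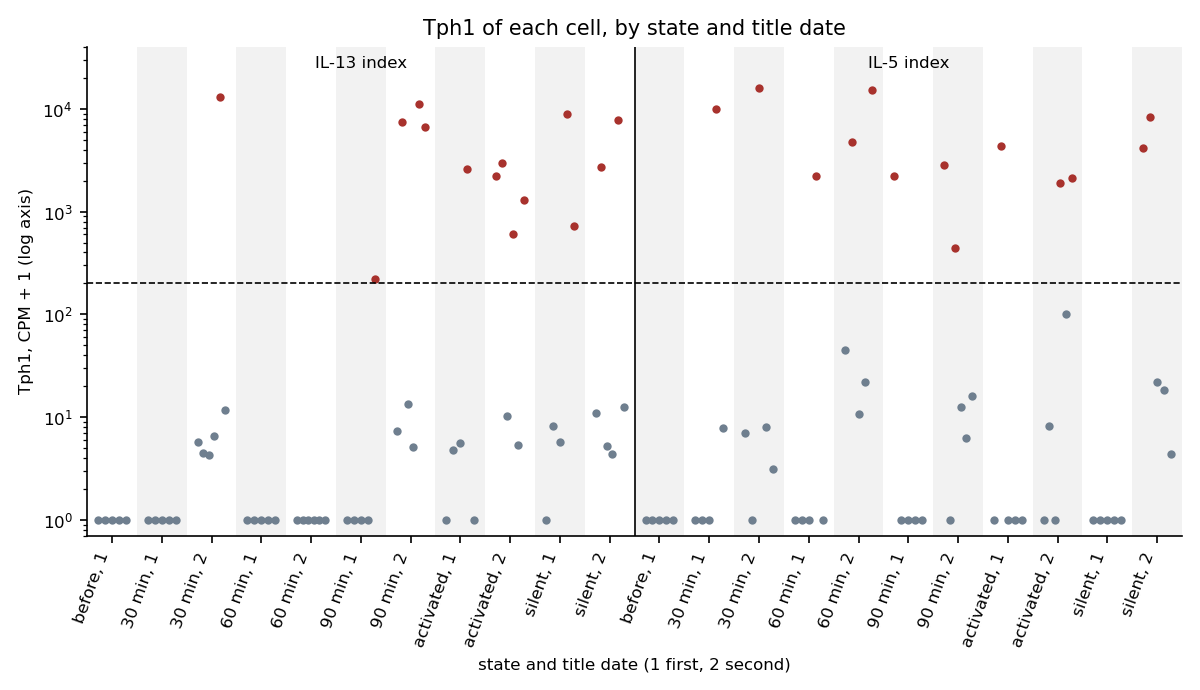
Tph1 by library pool, each point 1 cell (CPM, log axis with 0 shown), red at or above 200 CPM and grey below, with a dashed line at 200 CPM. Low values above 0 occur in pools with a red point, and the 31 cells of the 6 pools without one, among them the 10 cells before stimulation, are at 0.

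Against the cells before stimulation of the same index, Tph1 was at least 372-fold higher at 30 min and at least 337-fold higher in activated IL-13-indexed cells. In the IL-5 index it was at least 966-fold higher at 30 min, 247-fold when activated and 546-fold when silent. The value at 30 min in the IL-13 index rested on replicate 10, which held 99.7% of the reads. Without that cell 8 reads (3.28 CPM) were left, a log2 ratio of 0.07 against the limit. Other cells moved these bounds without ending them. Leaving out replicate 8 of the silent IL-5-indexed cells gave a log2 ratio of 6.83 in place of 9.09, replicate 8 at 30 min 8.22 in place of 9.92, replicate 2 of the activated cells 7.23 in place of 7.95, and replicate 10 of the silent IL-13-indexed cells 8.68 in place of 9.37. On the first title date alone, the IL-13 index at 30 min and the silent IL-5-indexed cells had 0 Tph1 reads, and the log2 ratios elsewhere ran from 7.60 to 9.53.

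Whether Tph1 was higher in activated or in silent cells depended on the measure. Cells with much Tph1 were 5 of 11 activated and 4 of 11 silent in the IL-13 index, and 3 of 11 and 2 of 10 in the IL-5 index, with overlapping intervals. The summed levels had the other order, and the log2 ratio of activated to silent cells was -0.97 (-1.04 to -0.91) for IL-13-indexed and -1.14 (-1.22 to -1.07) for IL-5-indexed cells. Single cells carried these values as well. Without silent replicate 10 the IL-13 index ratio was -0.28, and without silent replicate 8 the IL-5 index ratio turned to 1.12. Without activated replicate 2 the latter was -1.86. On the first title date alone they were -1.93 and 8.37, the latter against the limit.

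Of the 8 genes for serotonin synthesis, storage and breakdown, 4 had reads, and Tph1 was the only one with reads in more than 4 cells. Ddc, the next enzyme after Tph1, had 15 reads in 1 silent cell of the IL-13 index. The serotonin-degrading oxidases Maoa and Maob had reads in 4 and 3 cells, with highest group levels of 51.5 CPM (IL-5 index, 60 min) and 51.9 CPM (IL-13 index, 60 min). The brain form Tph2, the vesicle transporters Slc18a1 and Slc18a2 and the uptake transporter Slc6a4 had 0 reads. Among 14 serotonin receptors only Htr1b had reads, in 29 cells, with its highest level of 219 CPM in the IL-5 index at 90 min, 71% of it in 1 cell. In that index it was at 124 CPM before stimulation, from 2 of 5 cells, and at 9.13 CPM when silent. In the IL-13 index it was at 28.0 CPM before stimulation, all in 1 cell, 85.9 CPM at 30 min, from 7 of 11 cells, and 15.1 CPM when silent.

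The tetrahydrobiopterin cofactor of Tph1 is supplied by 8 listed genes, of which 7 had reads. Gch1, the rate-limiting enzyme of that supply, had 0 reads in all 10 cells before stimulation, as Tph1 did. This was not particular to Gch1, since Gchfr and Spr of the same list had 0 reads there too. So had Slc7a5, Abcc1, Plaa and Ptgs2 of the other lists. The levels of Gch1 afterwards were 104, 192, 112, 49.2 and 11.3 CPM in the IL-13 index at 30, 60 and 90 min, then in activated and in silent cells. The IL-5 index gave 53.5, 65.0, 191, 278 and 5.55 CPM. Unlike Tph1, Gch1 was near its lowest stimulated level in the silent cells of both indexes, and in the IL-5 index its log2 ratio of activated to silent cells was 5.65 (4.96 to 6.43). Per cell, 27 cells had much Tph1 and 48 had Gch1 reads among the 117 with a CPM of their own, and 11 had both. Pts, the next enzyme of that pathway, stood at 132 and 55.3 CPM before stimulation against 6.80 and 20.9 CPM in silent cells, but these reads lay in 2 and 1 cells before stimulation and in 2 and 1 silent cells. For tryptophan itself, Slc3a2, a subunit of its transporter, was at 58.1 and 232 CPM before stimulation and at 341 and 518 CPM in activated cells. Wars, which loads tryptophan onto its tRNA, was at 0 and 17.3 CPM before and at 60.8 and 96.2 CPM in activated cells, while Ido1, Ido2 and Tdo2, which degrade tryptophan, had 0 reads.

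Alox5 (ENSMUSG00000025701, chromosome 6, 116410077 to 116461178, minus strand) had 1843 reads in 37 cells. Before stimulation the 5 IL-5-indexed cells were at 142, 665, 310, 849 and 840 CPM. The 5 IL-13-indexed cells were at 126, 403, 322, 0 and 4.63 CPM. Every cell of the IL-5 index and 4 of 5 of the IL-13 index thus had reads before stimulation, with the IL-5 index higher in sum (606 against 159 CPM) and the cells overlapping. The levels in the IL-13 index were 74.0 CPM (64.0 to 85.0) at 30 min, then 127 CPM (115 to 140) by 60 min, 27.6 CPM (20.2 to 36.8) at 90 min, 3.13 CPM (1.50 to 5.76) when activated and 0 CPM when silent. The IL-5 index had 48.4 CPM (41.5 to 56.2), 34.2 CPM (28.3 to 41.0), 13.1 CPM (8.41 to 19.5), 0 CPM and 0 CPM. Both indexes had their lowest values in the cells at 8 h, whether activated or silent.

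Cells with Alox5 reads were fewer at 90 min and at 8 h than before stimulation in both indexes, while in the IL-13 index they numbered 8 of 11 at 30 min and 9 of 11 at 60 min. Over both indexes, reads were in 9 of 10 cells before stimulation (90%, 55.5 to 99.7), in 12 of 22 at 30 min (54.5%, 32.2 to 75.6), in 11 of 22 at 60 min (50%, 28.2 to 71.8), in 4 of 22 at 90 min (18.2%, 5.19 to 40.3), in 1 of 22 activated (4.55%, 0.115 to 22.8) and in 0 of 22 silent cells, which allows a share of up to 13.6%. At a fixed depth of 100000 gene reads a cell, which left out 7 of 120 cells, the counts were 4 of 5 and 5 of 5 before stimulation, 8 of 11 and 4 of 10 at 30 min, 9 of 11 and 1 of 10 at 60 min, 1 of 8 and 1 of 10 at 90 min, 1 of 11 and 0 of 11 when activated and 0 of 11 and 0 of 10 when silent (IL-13, then IL-5 index). The IL-13 index at 60 min held more cells with Alox5 than the IL-5 index, and cells ran from 0 over a median of 90.5 to 532 CPM in the first and from 0 over 0 to 383 CPM in the second, so the cells overlapped. The 10 reads of activated cells all lay in replicate 7 of the IL-13 index.

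Relative to the cells before stimulation, the log2 ratio of Alox5 at 30 min was -1.10 (-1.41 to -0.79) for IL-13-indexed and -3.64 (-3.89 to -3.40) for IL-5-indexed cells. Among activated IL-13-indexed cells it was -5.66 (-6.75 to -4.74), and -7.20 against the limit without replicate 7. Silent IL-13-indexed cells were at least 140-fold lower. The values on the first title date alone were -0.79 and -3.08 at 30 min and, against the limit, -6.06 in activated and -5.59 in silent IL-13-indexed cells. Leaving out replicate 2 at 30 min gave -4.43 in the IL-5 index. With the cells before stimulation of both indexes summed, the values at 30 min were -2.46 and -3.07, both past 4-fold. Alox5 and Tph1 were not exclusive of each other in a cell, since 6 of the 27 cells with much Tph1 also had Alox5 reads, among them all 3 such cells at 30 min.

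Alox5ap (ENSMUSG00000060063, chromosome 5, 149264767 to 149288153, plus strand), the helper protein of 5-lipoxygenase, had 243 reads in 6 cells, 1 cell in each of 6 groups. Those cells were at 103 to 251 CPM and the highest group level was 30.5 CPM, in the IL-5 index before stimulation, so no comparison rested on more than 1 cell a group. It shares 13.3% of its exonic bases with Gm19719. Only 2 of the 37 cells with Alox5 reads had Alox5ap reads. Ltc4s (ENSMUSG00000020377, chromosome 11, 50236461 to 50238616, minus strand), the synthase of leukotriene C4, had 0 reads in all 120 cells. Its last 500 exonic bases, the end a 3' library reads, overlap Gm26542 over 49.6%, and a read in an overlap can be left unassigned, so its 0 is limited by counting as well as by depth.

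Lta4h (ENSMUSG00000015889, chromosome 10, 93453411 to 93484875, plus strand), which makes leukotriene B4, had 4439 reads in 67 cells. Its highest levels were in silent cells, at 409 CPM (385 to 434) in the IL-13 index and 335 CPM (314 to 356) in the IL-5 index, with reads in 9 of 11 and 10 of 11 cells. Activated cells were at 38.2 CPM (31.7 to 45.6) and 58.9 CPM (51.4 to 67.3), with reads in 5 of 11 and 6 of 11 cells. The silent cells ran from 0 over a median of 165 to 1768 CPM and from 19.8 over 163 to 1181 CPM, and the activated cells from 0 over 0 to 160 CPM and from 0 over 6.10 to 315 CPM. The medians were apart in both indexes while the cells overlapped. In the other states the levels were 144, 99.0, 154 and 99.1 CPM before stimulation and at 30, 60 and 90 min in the IL-13 index, and 45.4, 47.3, 146 and 124 CPM in the IL-5 index.

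The log2 ratio of activated to silent cells for Lta4h was -3.42 (-3.70 to -3.15) for IL-13-indexed cells, and for IL-5-indexed cells it was -2.51 (-2.72 to -2.29). Among the former, silent replicate 6 held 49.5% of the reads, and without it the ratio was -2.61. The IL-5 index ratio was -1.97 without silent replicate 2 and -3.22 without activated replicate 4. With the first title date alone the ratios were -0.95 and -2.0, the latter just short of 4-fold, so Lta4h passed the limit in neither index there. Against the cells before stimulation, silent cells differed by 1.50 (1.25 to 1.77) and 2.88 (2.49 to 3.30). Before stimulation 74.8% of the IL-13 index reads lay in replicate 1, and all 55 reads of the IL-5 index in its replicate 1, so without these cells the values were 3.07 and 6.91, the latter against the limit. Without silent replicate 6 the first was 0.69, and on the first title date alone it was 0.05. Summing the cells before stimulation of both indexes turned the order, to 2.20 in the IL-13 and 1.91 in the IL-5 index, so that the former passed 4-fold and the latter did not. With single-cell CPM averaged, the IL-5 index value was 2.01, where silent replicate 7, with 2152 gene reads, counted at 0.

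The other ratios of Lta4h to the cells before stimulation were under 4-fold and rested on single cells. Activated IL-13-indexed cells were at -1.92 (-2.28 to -1.55), past -2 on leaving out any 1 of 6 cells, down to -2.46 without activated replicate 4, and at -0.35 without replicate 1 before stimulation. The ratio at 30 min in the IL-13 index, -0.54 (-0.84 to -0.24), turned to 1.02 without replicate 1 before stimulation. The ratios of the IL-5 index, 0.06 at 30 min and 0.38 when activated, turned to -0.81 without replicate 7 at 30 min and to -0.34 without activated replicate 4. The former was -4.55 against the limit within the first title date, where it had 0 reads at 30 min, and both were positive without replicate 1 before stimulation, where they were 4.09 and 4.41 against the limit without replicate 1 before stimulation.

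**Figure D3:**
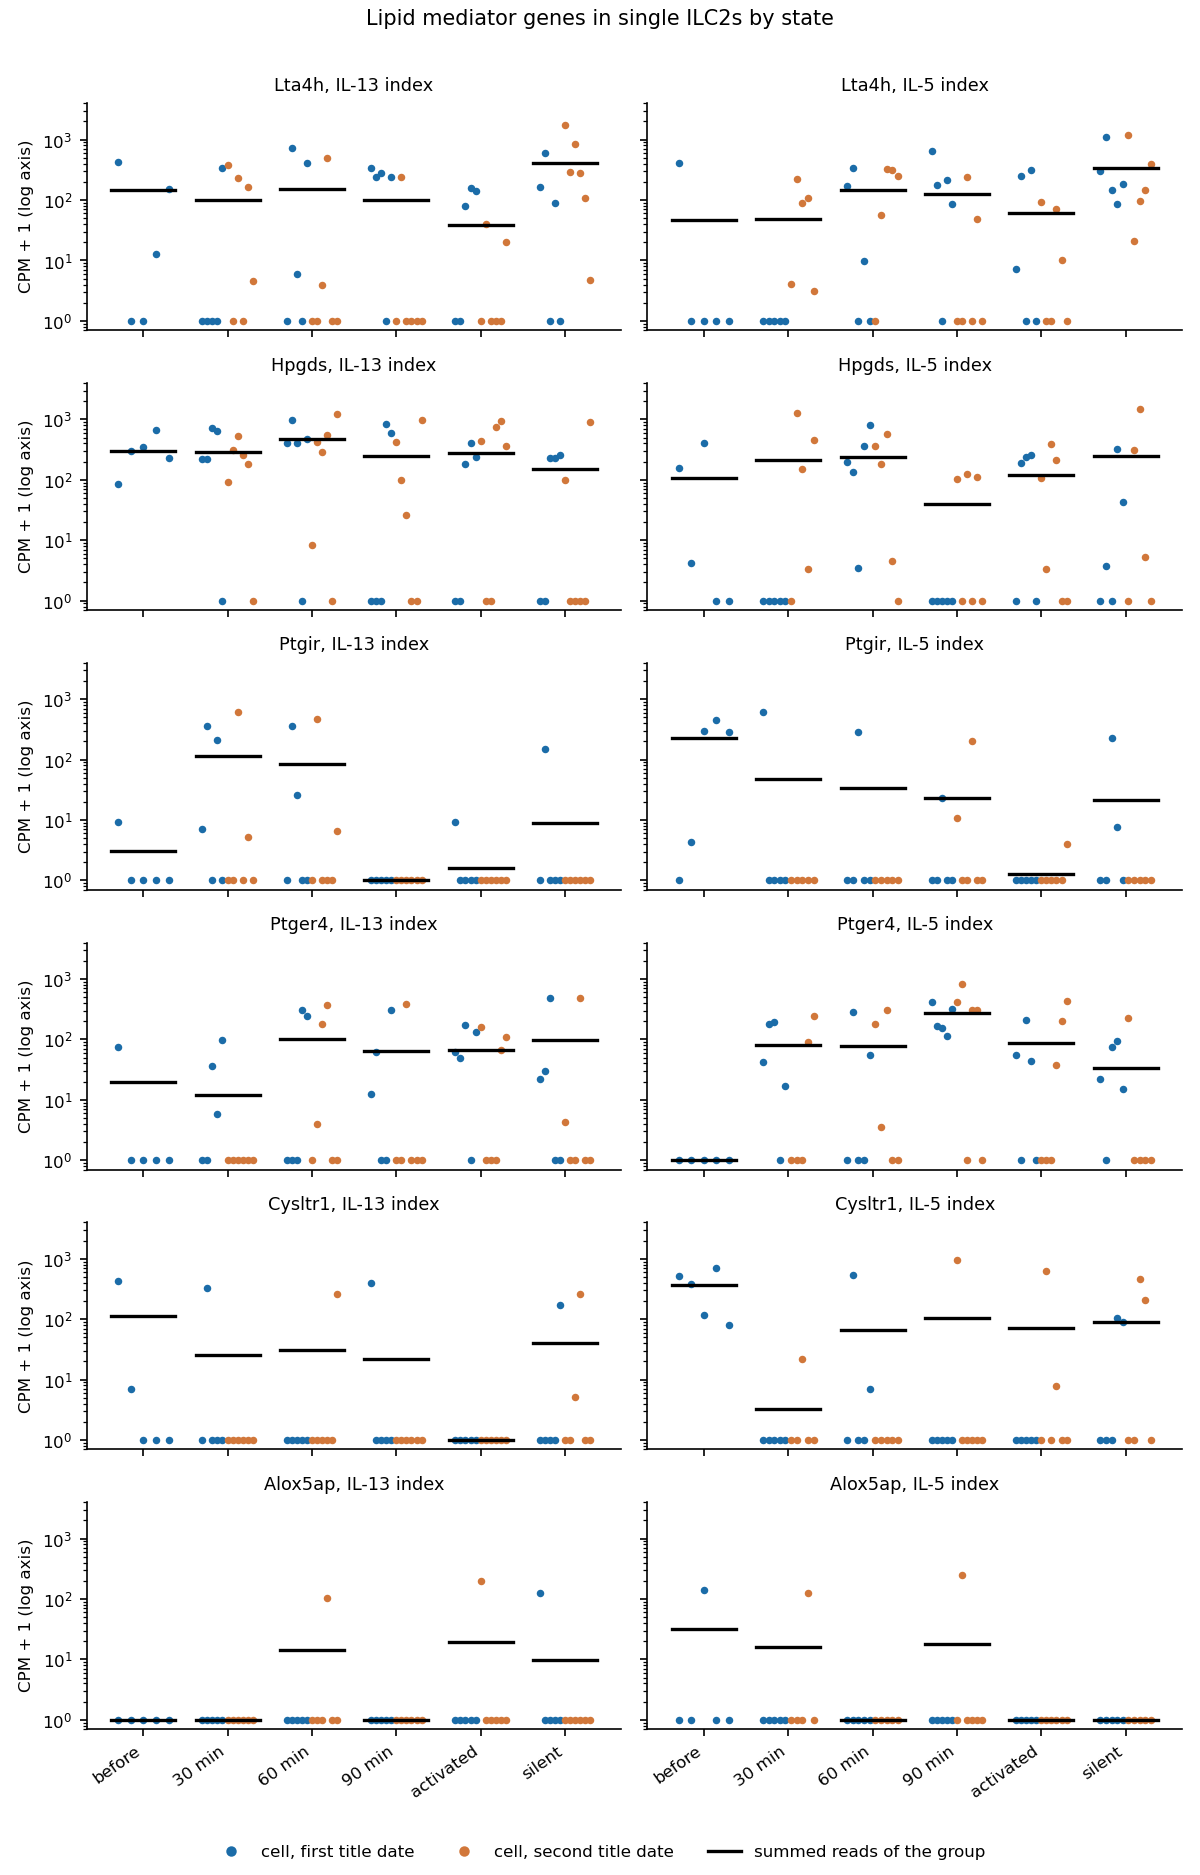
The other members with reads in single cells by group (CPM, log axis with 0 shown), each point 1 cell with at least 10000 gene reads, blue for the first and orange for the second title date, with a black line for the level of the summed reads. Lta4h has reads in 19 of 22 silent cells, and Cysltr1 and Ptgir have most of their reads in few cells of a group.

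Cysltr1 (ENSMUSG00000052821, chromosome X, 106574346 to 106603679, minus strand), the receptor for leukotriene D4, had 1793 reads in 24 cells. Before stimulation the IL-5-indexed cells were at 510, 375, 117, 709 and 79.4 CPM. The IL-13-indexed cells were at 427, 5.92, 0, 0 and 0 CPM. All 5 IL-5-indexed cells thus had reads, while replicate 1 held 99.1% of the reads of the IL-13 index. After stimulation reads were in 17 of 110 cells (15.5%, 9.27 to 23.6) against 7 of 10 before (70%, 34.8 to 93.3), and 8 of those 17 were silent cells. Group levels after stimulation were 24.3, 30.4, 21.0, 0 and 39.3 CPM in the IL-13 index and 2.25, 65.3, 106, 69.4 and 87.4 CPM in the IL-5 index.

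For the IL-5 index the log2 ratio of Cysltr1 to the cells before stimulation was -7.33 (-8.55 to -6.34) at 30 min, -2.38 (-2.61 to -2.16) in activated and -2.05 (-2.28 to -1.83) in silent cells. The 2 smaller values lay near the 4-fold limit of -2. The activated value was -1.86 without replicate 4 before stimulation and -8.64 without activated replicate 7, and the silent value passed the limit no longer on leaving out any 1 of 8 cells, down to -1.52 without replicate 4 before stimulation, and was -3.14 without silent replicate 9. At 30 min, where all 8 reads were in replicate 8, it was -8.58 against the limit without that cell. In the IL-13 index the ratios were -2.18 (-2.65 to -1.72) at 30 min and -1.48 (-1.89 to -1.08) when silent, and activated cells were at least 117-fold lower. They rested on replicate 1 before stimulation, without which the ratio at 30 min turned to 2.54 and that of silent cells to 3.23 against the limit, and none could be given for activated cells. Leaving out replicate 2 at 30 min gave -6.50, replicate 9 at 30 min -1.97 and silent replicate 9 -3.26. On the first title date alone the IL-5 index gave -7.55 and -7.58, both against the limit, and -3.22, and the IL-13 index -0.75 and -1.95 at 30 min and when silent. Summing the cells before stimulation of both indexes brought the IL-5 index to -1.85 (activated) and -1.52 (silent), both short of 4-fold, and the IL-13 index to -3.37 at 30 min and -2.67 when silent. Short of 4-fold were also the IL-13 index at 30 min with single-cell CPM averaged (-1.55) and with TMM factors (-1.96), silent IL-5-indexed cells with both (-1.57 and -1.67) and activated ones with TMM factors (-1.91). The value of -1.57 took in silent replicate 7, at 465 CPM of Cysltr1 on 2152 gene reads, and so rested in part on that cell.

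Hpgds (ENSMUSG00000029919, chromosome 6, 65117293 to 65144908, minus strand), the synthase of prostaglandin D2 in blood cells, was the member found in most cells, with 7145 reads in 73 cells and reads in all 12 groups. It ran through the states at 302, 287, 466, 250, 277 and 152 CPM in the IL-13 index and at 106, 214, 238, 38.8, 117 and 243 CPM in the IL-5 index, from before stimulation to silent. Before stimulation all 5 IL-13-indexed cells had reads, at 85.3, 296, 346, 670 and 232 CPM. The IL-5-indexed cells were at 157, 3.26, 404, 0 and 0 CPM, so those of the 2 indexes overlapped. The log2 ratios over the 8 comparisons ran from -1.05 to 1.19, all within the 4-fold limit. The ratios of -0.07 and -0.12 for 30 min and activated IL-13-indexed cells turned to 0.14 and 0.11 with edgeR's TMM factors, and the first to 0.04 with DESeq2's size factors. Without replicate 3 before stimulation, which held 82.9% of the reads, the 3 ratios of the IL-5 index were 3.21, 2.34 and 3.39, and without silent replicate 11 the silent ratio of the IL-13 index was -2.09 in place of -0.99. Without replicate 7 at 30 min the ratio of the IL-5 index at 30 min turned to -0.31, and without silent replicate 9 its silent ratio turned to -0.28 and its ratio of activated to silent cells to 0.42. That last ratio was 1.97 in place of 0.86 in the IL-13 index without silent replicate 11. On the first title date alone, where the IL-5 index at 30 min had 0 Hpgds reads, the ratios to the cells before stimulation were 0.27, -0.84 and -0.99 in the IL-13 index and -5.78 (against the limit), 0.24 and -0.62 in the IL-5 index.

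Ptgdr2 (ENSMUSG00000034117, chromosome 19, 10937160 to 10942511, plus strand), the prostaglandin D2 receptor by which ILC2 are often recognised, had 0 reads in all 120 cells. All of its last 500 exonic bases overlap Ccdc86, so a 3' read there could not be given to Ptgdr2 alone, and the strand setting of the counting is not stated.

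Ptgir (ENSMUSG00000043017, chromosome 7, 16906490 to 16910905, plus strand), the prostacyclin receptor, had 1247 reads in 24 cells. Before stimulation the IL-5-indexed cells were at 0, 3.26, 298, 447 and 289 CPM. The IL-13-indexed cells were at 8.13 CPM in replicate 1 and at 0 CPM in the other 4. The indexes thus began 225 CPM (199 to 254) and 2.07 CPM (0.251 to 7.49) apart, and their values after stimulation were 116, 83.6, 0, 0.626 and 7.93 CPM (IL-13) and 46.2, 33.4, 22.4, 0.268 and 20.6 CPM (IL-5). Both were low in activated cells, with 2 reads and 1 read. At 30 min the log2 ratio was 5.80 (3.94 to 8.86) in the IL-13 index, on 2 reads before stimulation, and -2.29 (-2.57 to -2.0) in the IL-5 index, where all 164 reads at 30 min were in replicate 1. With the limit of 3 reads in place of those 2, the first was 5.22, or 4.01 without replicate 8 at 30 min. The second was -7.95 against the limit without replicate 1 at 30 min, -1.74 without replicate 4 before stimulation and -1.09 on the first title date alone. With the cells before stimulation of both indexes summed, the IL-13 index ratio turned to -0.13 and the IL-5 index ratio was -1.45. The latter was also short of 4-fold with single-cell CPM averaged (-1.88) and with TMM factors (-1.93). That average counted replicate 10 at 30 min, with 73 gene reads, at 0. In the IL-5 index activated cells were at -8.13 with their 1 read set to the limit, or at -9.72 (-15.02 to -7.22) on that read itself, and silent cells at -3.45 (-3.87 to -3.05), or -7.71 without silent replicate 3 and -2.53 on the first title date.

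Ptger4 (ENSMUSG00000039942, chromosome 15, 5206661 to 5244187, minus strand), the prostaglandin E2 receptor EP4, had 2371 reads in 56 cells. Before stimulation 1 of 10 cells had reads, namely replicate 1 of the IL-13 index at 73.1 CPM with 18 reads. After stimulation reads were in 55 of 110 cells (50%, 40.3 to 59.7), spread over all 10 groups. The levels were 18.7, 10.8, 99.6, 62.4, 65.4 and 95.6 CPM from before stimulation to silent in the IL-13 index and 0, 79.1, 77.0, 270, 84.9 and 32.3 CPM in the IL-5 index. The highest, at 90 min in the IL-5 index, had reads in 9 of 11 cells, from 0 over a median of 303 to 810 CPM. Ptger4 was at least 32.0-fold higher at 30 min and at least 34.3-fold higher in activated cells than before stimulation in the IL-5 index, values that were at log2 5.10 and 4.67 on the first title date alone. For the IL-13 index the log2 ratios were -0.78 (-1.68 to 0.15) at 30 min, 1.81 (1.11 to 2.59) in activated and 2.36 (1.67 to 3.13) in silent cells. Without replicate 1 before stimulation they were 1.38, 3.97 and 4.52 against the limit. The value at 30 min was -2.52 without replicate 5 at 30 min, and the silent value fell under the 4-fold limit without silent replicate 3 (1.74), silent replicate 9 (1.32) or replicate 5 before stimulation (1.99). Within the first title date they were 0.65, 2.05 and 2.68, and with the cells before stimulation of both indexes summed 0.39, 2.98 and 3.53. The activated value also passed 4-fold with single-cell CPM averaged (2.21) and with TMM factors (2.05). In the IL-5 index the summed cells gave 3.26 at 30 min and 3.36 when activated. Activated and silent cells were closer, at -0.55 (-0.82 to -0.28) and 1.40 (1.07 to 1.74) in the IL-13 and the IL-5 index. The former turned to 0.07 without silent replicate 3 and to 0.49 without silent replicate 9, and the latter was 2.03 without silent replicate 6 and 0.67 without activated replicate 11, a cell whose removal also took the activated value against before from 5.10 to 4.38. Of the exonic bases of Ptger4, 16.5% are shared with Ttc33 and Gm15937.

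The members that were 4-fold apart were counted beside all genes, and since these contrasts guided the choice of members nothing was read from the counts. The count took genes at 50 CPM or more in the higher group and a ratio of at least 4-fold either way. For the IL-13 index at 30 min against before, 2 of 6 members were higher (Tph1 and Ptgir) and 1 lower (Cysltr1), beside 22.3% and 22.7% of 3668 genes. For its activated cells it was 1 higher (Tph1) and 2 lower (Alox5 and Cysltr1) of 6, beside 22.1% and 25.2% of 3634 genes. Its silent cells had 2 higher (Tph1 and Ptger4) and 1 lower (Alox5) of 6, beside 27.1% and 17.6% of 4018 genes. Tph1 was the member on the higher side each time.

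In the IL-5 index at 30 min 2 of 6 were higher (Tph1 and Ptger4) and 3 lower (Alox5, Ptgir and Cysltr1), beside 22.6% and 22.2% of 3896 genes. The activated cells had the same 2 higher and the same 3 lower of 7, beside 20.6% and 27.1% of 3749 genes. The silent cells had 2 higher (Tph1 and Lta4h) and again those 3 lower of 6, beside 22% and 22.8% of 3883 genes. Between activated and silent cells only Lta4h was apart, lower in both indexes but in neither on the first title date alone, with 0 of 4 and 0 of 5 members higher. The shares of all genes were 9.48% higher and 21.8% lower of 3681 in the IL-13 index, and 6.13% higher and 11.9% lower of 3260 in the IL-5 index. The 6 comparisons with the cells before stimulation share those cells within an index, and the median log2 ratio of the members ran from -1.02 to 0.26 (IL-13) and from -0.64 to 0.14 (IL-5) there, beside -0.23 to 0.23 and -0.39 to -0.12 for all genes. With the cells before stimulation of both indexes summed, the members apart at 30 min, when activated and when silent were 3, 5 and 6 in the IL-13 index and 4, 4 and 3 in the IL-5 index, in place of 3 each and 5 each.

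**Figure D4:**
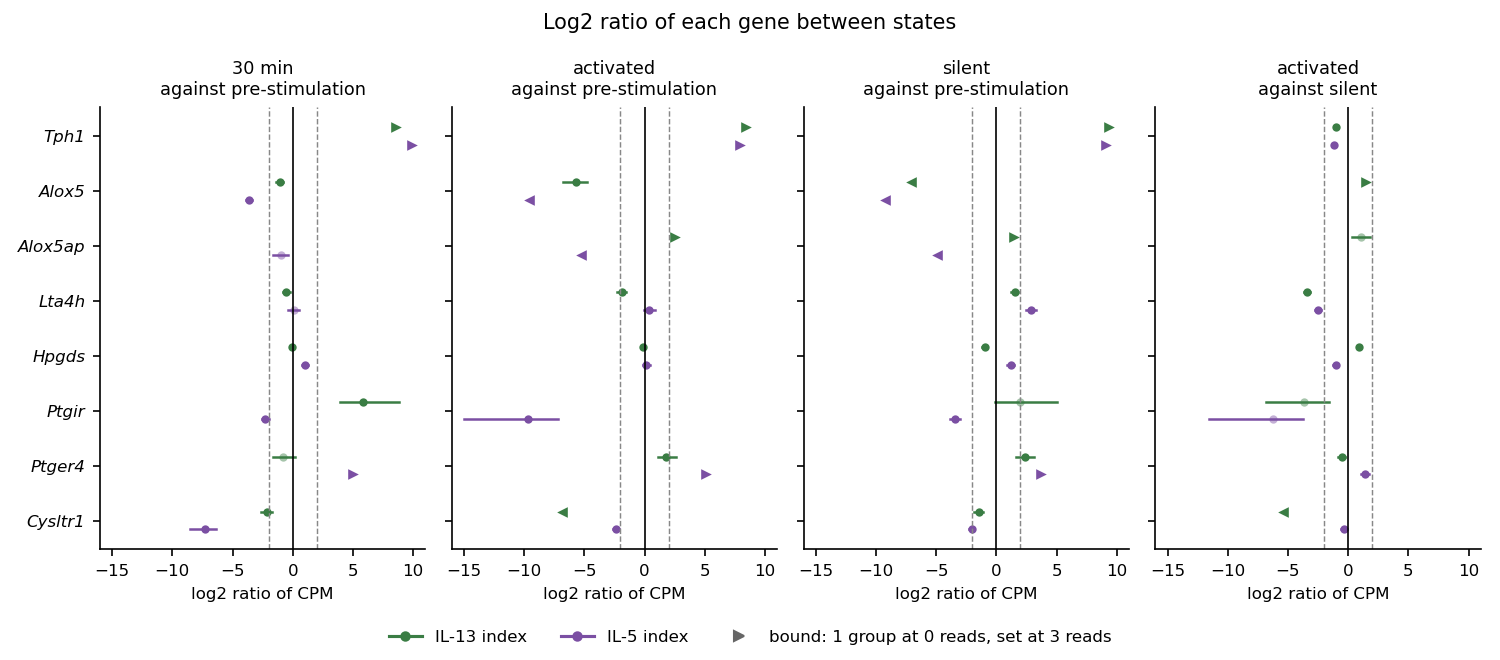
Log2 ratios of the members in 4 comparisons within each index. Circles are ratios of summed CPM with 95% counting intervals, triangles are bounds with a group of 0 reads set at 3 reads, pale circles are genes under 50 CPM in both groups, and dashed lines mark 4-fold. Tph1 lies on the higher side of the 6 comparisons with the cells before stimulation, Alox5 on the lower side of them, and Lta4h is lower in activated than in silent cells of both indexes.

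Beyond the members, 85 listed genes of these pathways were counted, of which 39 had reads, 46 had 0 reads and 25 reached 50 CPM in a group. The list of arachidonate release had reads in 6 of 10 genes, and only Plaa, an activator of phospholipase A2, reached 50 CPM, with its highest level of 201 CPM in silent IL-5-indexed cells, where 69.8% of the reads lay in 1 cell. Pla2g4a, the cytosolic phospholipase A2, had 14 reads in 3 cells. Of the 6 other lipoxygenases only Alox8 had reads, at most 17.8 CPM in a group. In leukotriene synthesis and export, Abcc1, which exports leukotriene C4, was at 0 CPM before stimulation in both indexes and at 26.4 to 126 CPM in the groups after it. Cotl1, which binds 5-lipoxygenase, was at 288 CPM before stimulation against 61.1 CPM in activated and 70.3 CPM in silent IL-13-indexed cells, and at 144 against 110 and 131 CPM in the IL-5 index. Mgst2, another synthase of leukotriene C4, had reads in 13 cells and was at 170 CPM before stimulation and 0 CPM in activated IL-13-indexed cells, with 72.0% of the former in 1 cell. Mgst3, a related enzyme, had reads in 5 cells. It was at 0 CPM before stimulation and when activated and at 76.3 CPM when silent in the IL-13 index, from 2 cells, and at 115 CPM before stimulation, from 1 cell, and 0 CPM when activated and when silent in the IL-5 index.

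Among receptors, Cysltr2 had reads in 9 cells and Ltb4r1 in 26, the latter at most 25.9 CPM in a group. The 169 CPM of Cysltr2 before stimulation in the IL-13 index lay in 1 cell. Ptger2, the other prostaglandin E2 receptor of the cyclic AMP type beside Ptger4, had reads in 67 cells and was at 0 and 46.2 CPM before stimulation, the latter to 94.6% in 1 cell, and at 146 and 154 CPM in activated cells. In activated cells of both indexes it was thus above its level before stimulation, as Ptger4 was. Ptgdr, Ptger1, Ptgfr and Tbxa2r had 0 reads.

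Ptgs2, the inducible cyclooxygenase that starts prostaglandin synthesis, had 0 reads before stimulation and in silent cells of both indexes and was at 262 and 414 CPM in activated cells. These levels came from 4 of 11 cells in each index, with 74.5% and 58.0% of the reads in 1 cell. It was also at 239 CPM in the IL-5 index at 60 min, all in 1 cell, and at 15.7 and 50.3 CPM in the IL-13 index at 30 and 60 min. The prostanoid synthesis list, Hpgds included, had reads in 6 of 11 genes, with 0 reads for the constitutive cyclooxygenase Ptgs1 and for Ptges, Ptgds, Ptgis and Tbxas1. Ptges3, a prostaglandin E synthase and chaperone partner, was at 201 to 341 CPM in all 12 groups. Akr1b3 was at 76.7 and 48.7 CPM before stimulation and at 133 and 242 CPM in activated cells. In prostanoid synthesis the 4-fold limit was passed upward by Ptgs2 in activated cells of both indexes and by Akr1b3 in activated IL-5-indexed cells (a log2 ratio of 2.32, beside 0.80 for IL-13, where 90.5% of the reads before stimulation were in 1 cell). Cbr1 passed it downward in the IL-5 index, where 29.4% of its reads before stimulation were in 1 cell. In the IL-13 index Cbr1 was at 12.4 CPM before stimulation, all in 1 cell, and at 22.4, 72.5, 0, 17.2 and 43.4 CPM from 30 min to silent.

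**Figure D5:**
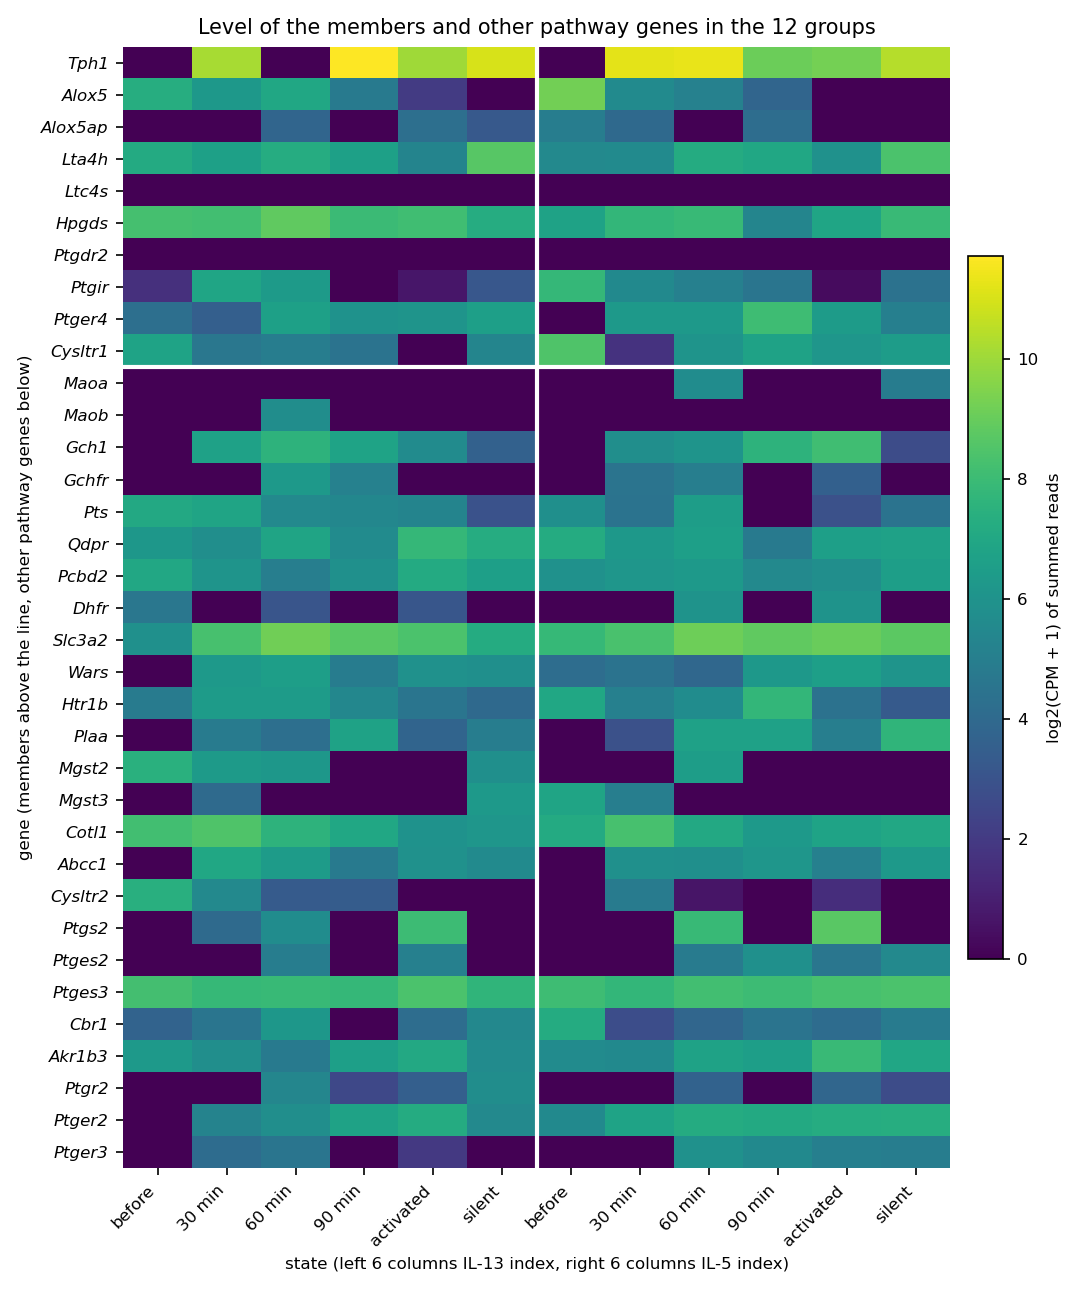
Levels of the members and of the other pathway genes that reached 50 CPM in at least 1 group, over the 12 groups (colour, log2 of summed CPM + 1). Rows are genes ordered by pathway, and Tph1, Gch1 and, in the IL-5 index, Ptger4 are at 0 (darkest) before stimulation. So are Abcc1, Plaa and Ptgs2 among other rows, and Ptgs2 is highest in activated cells.

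Detection was also counted per cell. Before stimulation all 7 cells with Cysltr1 reads and all 5 with Ptgir reads had Alox5 reads, but so had 9 of the 10 cells in all, which leaves little room for another outcome. At 30, 60 and 90 min together, 4 of the 7 cells with Cysltr1 and 8 of the 14 with Ptgir had Alox5, which had reads in 27 of 64 cells, and no link was read from counts this small. Tph1 and the index cytokines were counted in the same way. Of the 22 activated cells, 8 had much Tph1 and 17 had Il13 at 200 CPM or more, and 7 had both. Il5 was at 200 CPM or more in 19 of them, 6 of which had much Tph1. Among 21 silent cells 6 had much Tph1, 5 had Il13 at that limit and 2 had both. Il5 was at that limit in 6 silent cells, 3 of which had much Tph1. In summed reads, Il13 was at 627 CPM in silent and 991 CPM in activated IL-5-indexed cells, and at 4.16 and 1231 CPM in the IL-13 index. Of the 6 silent cells with much Tph1, 2 had neither cytokine at the limit, namely silent replicates 5 and 10 of the IL-13 index, with 0 CPM of Il13 and 66.5 and 37.3 CPM of Il5.

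Over the 12 groups, the genes most like Tph1 in log2(CPM + 1), among 2658 genes with a mean of at least 50 CPM, were Hsph1 (Pearson r = 0.963), Bop1 (0.918), Tsr1 (0.898), Tomm40 (0.890) and Fubp1 (0.877). Hsph1 also had 0 CPM in the 3 groups in which Tph1 had 0, and shared zeros by themselves raise r on this scale. Those most like Alox5 were Cst7 (0.937), Casp4 (0.896), Irak1 (0.892), Serinc3 (0.868) and S100a6 (0.861). S100a6 was at 3423 and 3537 CPM before stimulation and at 148 and 93.0 CPM in activated cells. Tph1 and Alox5 had r = -0.639 with each other, a value drawn from the same rise and fall by which both were chosen, so nothing was read from it. The points share their libraries and their cells before stimulation, and no p was computed.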

How the data were processed

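The deposited files, 1 per cell, hold raw read counts per gene. The authors made these counts by aligning reads to mm10 with TopHat2, per the submitters' processing notes, and tallying them per Ensembl gene. Which annotation release and strand setting were used is not given in the sources used here. Libraries came from a 3' kit, in which small sets of cells, told apart by index primers, shared 1 tagmentation reaction. Each file lists 46078 gene identifiers and 5 summary entries. The summary entries stayed out of library sizes, and of all tallied alignments 62.0% lay in genes, 1.86% were ambiguous between genes, 28.7% were not unique and 7.42% lay in no feature. A reference annotation of GRCm38 gave positions and symbols for 45143 identifiers. No pair of cells had identical counts (0 pairs), and the files hold no barcodes.

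Samples were grouped by the index and state in their source names and by the date in their titles. Each group's cells were added up, and the sums were expressed per 1000000 gene reads (CPM). Log2 ratios carry 95% intervals from the exact binomial interval of the split of reads. A called ratio is at least 4-fold where the higher group has 50 CPM or more, and a group under 3 reads was set to 3 reads. No test between groups was made, since each group is 1 sample. Detection was also counted after thinning cells to 100000 gene reads, which 113 cells reached. A cell has a CPM of its own from 10000 gene reads on, a limit set after the data were seen, as was the 200 CPM limit for Tph1. The averages of single-cell CPM among the alternatives took in all cells, also those under 10000 gene reads.

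The members and the gene lists were chosen with earlier results of these data known. Named are the 10 members, the listed pathway genes at 50 CPM or more in at least 1 group or as counts, the 5 genes most correlated with Tph1 and with Alox5, and Il13 and Il5. Listed genes under 50 CPM (Ddc, Pla2g4a, Alox8 and Ltb4r1) or at 0 reads are named to account for their lists, a choice made after their values were seen. The listed name Ltb4dh was not found by symbol. Promoter windows are RefSeq's on GRCm38.p6. The scripts were tested on simulated data. Scaling factors were computed with DESeq2 1.42.0 and edgeR 4.0.16 in R 4.3.3. All else used pandas 2.3.3, scipy 1.17.1, numpy 2.4.6 and, for plots, matplotlib 3.10.9 under Python 3.11.15.

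The alternatives scaled by DESeq2's size factors or edgeR's TMM factors, averaged the CPM of single cells, joined the cells before stimulation of both indexes, kept only the first title date, left out 6 cells under 84667 gene reads, or used minimums of 10, 200 and no CPM, a fold of 2, a difference of log2(CPM + 1), thinned cells or a detection limit of 5 reads. Each cell was also left out in turn.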

Additional observations from a re-analysis of the deposited data

Results flagged for a closer look

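The members with reads in either of the 2 groups of 5 cells, those before stimulation, give 12 sets of 5 values. On the log2(CPM + 1) scale the highest cell was set apart by more than Dixon's critical gap of 0.71 in 4 of them. In each of them 1 cell had reads and the other 4 had 0, which gives the highest possible gap of 1 whatever the number of reads. The rate of about 1 in 20 groups that chance gives in this test does not apply to such counts, and the values are a description. They were Alox5ap at 140 CPM in replicate 3 and Lta4h at 412 CPM in replicate 1 of the IL-5 index before stimulation. In the IL-13 index before stimulation they were Ptgir at 8.13 CPM and Ptger4 at 73.1 CPM, both in replicate 1, the cell that also held 99.1% of the Cysltr1 reads of its group. On the CPM scale Cysltr1 in that group passed as well, with a gap of 0.986 in place of 0.681, which makes 5 of the 12.

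Ptgir at 30 min differed in direction between the indexes, with a log2 ratio to the cells before stimulation of 5.22 in the IL-13 index, taken with 2 reads before stimulation set to the limit of 3, and of -2.29 in the IL-5 index. This difference was not tested, since each group is 1 sample, and the indexes also differ in their title dates.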

How the results depend on the processing

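No paired analysis was possible because no result comes from a test and each group is 1 sample. Of the 94 counts of members past 4-fold computed under an alternative, 77 stayed within 1.5 times the value in the report and 17 did not. On the first title date alone the IL-13 index had 1 member apart at 30 min in place of 3 and 0 between activated and silent cells in place of 1, and in the IL-5 index the 1 between activated and silent cells was Tph1 in place of Lta4h. With a fold of 2 there were 5 in activated and 5 in silent IL-13-indexed cells in place of 3 each, and 4 between activated and silent IL-5-indexed cells in place of 1. A minimum of 200 CPM left 1 in each of the 3 comparisons of the IL-13 index with the cells before stimulation. A minimum of 10 CPM gave 2 between activated and silent cells in each index, and no minimum gave 3 (IL-13 index) and 2 (IL-5 index). With the cells before stimulation of both indexes together there were 5 in activated and 6 in silent IL-13-indexed cells, and 3 in place of 5 in silent IL-5-indexed cells. Leaving out each cell in turn gave, for 30 min, activated and silent cells against before and activated against silent, ranges of 2 to 3, 3 to 4, 2 to 4 and 1 to 1 (IL-13). For IL-5 the ranges were 4 to 6 for the former comparisons and 0 to 2 for the last. Of 522 log2 ratios under an alternative, 334 stayed in their interval and 40, of 20 ratios, had another sign than in the report, 17 of them on leaving out a cell. Only 2 of the 40 belong to ratios past 4-fold in the report, namely Ptgir of the IL-13 index at 30 min (-0.13 with the cells before stimulation of both indexes) and Cysltr1 there, which ran from -6.50 to 2.54 on leaving out each cell (2.54 without replicate 1 before stimulation). The first title date alone took 38 of 56 out of their interval, and with the cells before stimulation of both indexes 10 of 46 stayed in theirs. The cause was not tested. TMM factors moved the median log2 ratio of all genes by 0.07 to 0.75 and DESeq2's size factors by -0.20 to 0.17, and both turned the sign of Hpgds alone (2 and 1 of 60 ratios). With TMM factors the share of higher among all genes past 4-fold in the IL-5 index went from 50.5% to 61.6% at 30 min, from 43.2% to 57.8% in activated and from 49.1% to 61.8% in silent cells. Of 192 shares of cells, 181 stayed in their interval with thinned cells or a limit of 5 reads. Depth limits Alox5ap, Ltc4s, Ptgdr2 and all groups at 0 reads, where a level under 0.804 to 3.11 CPM cannot be seen.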
